A study of Mus musculus with 16 samples.

Results

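Insulin and insulin-like growth factor signalling was followed here through the transcripts of 9 genes in ageing mouse rods, the photoreceptors that serve dim-light vision. The 9 genes were picked by symbol, with earlier results of these data known. They were the receptor genes Insr and Igf1r, the adaptor genes Irs1 and Irs2, and the kinase genes Akt1, Akt2 and Mtor. The mTOR partner gene Rptor and the transcription factor gene Foxo3 completed the set. All 9 were found among the 45594 genes of the authors' gene table, and all 9 passed the filter on low values that left 12177 genes for testing. Rods were sorted by green fluorescence from retinas of C57BL/6J mice that carry the Nrlp-GFP reporter, in which the promoter of Nrl, a transcription factor needed for rod fate, drives the fluorescent protein. The animals were 3 months (3M), 12 months (12M), 18 months (18M) or 24 months (24M) old, and each age has 4 libraries, biological replicates by the design text, so that all groups share the strain, the reporter and the sort. The sources used here do not say whether a replicate was 1 mouse or a pool. Nothing was done to the pathway in these animals, so that age is the only factor compared.

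When insulin or an insulin-like growth factor binds, the receptor phosphorylates adaptor proteins of the IRS family, which recruit phosphoinositide 3-kinase to the membrane. The lipid it makes brings AKT to the membrane, where AKT is activated. Active AKT relieves the brake that the TSC complex puts on mTOR complex 1, the growth-promoting complex that Raptor (the product of Rptor) joins to its substrates, and it keeps FOXO transcription factors out of the nucleus. In the retina, insulin receptor and AKT signalling is known for supporting photoreceptor survival, and mTOR activity for its link to nutrient supply in cones. Most of these steps are phosphorylation events, which transcript levels do not measure.

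One of the 9 genes changed with age. Irs1 rose, by 2.71-fold at 24M against 3M, while the paralogous adaptor gene Irs2 and the other 7 genes did not pass the edgeR test of the 16 libraries at any age. The measure is the count of reads assigned to a gene, scaled to a common library size and written as CPM. The promoters of the 2 adaptor genes are shown because they stand before the member that moved and before its nearest relative. Each is the stretch of 250 bases upstream of the RefSeq start in build GRCm38.p6, read 5′ to 3′ on the minus strand, which both genes use, with the GC box GGGCGG and the E-box CACGTG in capitals. The Irs1 sequence is chr1:82291440-82291689, and its last base lies 23 bases upstream of the start of the transcript that was counted. The Irs2 sequence is chr8:11008930-11009179, and it ends 471 bases upstream of the start of the counted Irs2 transcript.

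Irs1: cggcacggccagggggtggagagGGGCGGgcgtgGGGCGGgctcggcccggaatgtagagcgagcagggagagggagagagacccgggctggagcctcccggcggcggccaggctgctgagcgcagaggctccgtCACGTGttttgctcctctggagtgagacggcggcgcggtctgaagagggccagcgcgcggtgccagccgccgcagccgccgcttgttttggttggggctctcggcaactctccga
Irs2: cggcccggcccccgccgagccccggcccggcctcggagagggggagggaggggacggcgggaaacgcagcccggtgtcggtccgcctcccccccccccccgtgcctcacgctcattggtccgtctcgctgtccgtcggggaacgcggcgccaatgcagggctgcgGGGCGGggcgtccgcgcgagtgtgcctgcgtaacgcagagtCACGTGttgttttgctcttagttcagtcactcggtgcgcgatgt

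Both promoters were rich in G and C, at 72.4% for Irs1 and 72.8% for Irs2, against a median of 52.4% over 32851 promoters of the same length. They held 28 and 34 CpG dinucleotides, in that order, against a median of 6. On either strand, the Irs1 window held the GC box at positions -227 and -216 from the start and the E-box at -115, and the Irs2 window held the GC box at -85 and the E-box at -44. The GC box was present in 32.7% and the E-box in 6.02% of all promoters. CCAAT was found 2 times in the Irs2 window and 0 times in that of Irs1, and it was present in 33.8% of all promoters. The letters GTAAACA of the FOXO motif (3.17% of promoters), TGACGTCA of the cyclic AMP response element (1.55%) and TATAAA (12.4%) were in neither window. None of the matches to one of these motifs overlapped a match to another. A match is a run of letters and no measurement of binding.

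The sorted libraries carried rod transcripts at high level, with 12 rod marker genes summing to 37700 ± 3080 CPM at 24M and 44700 ± 1560 CPM at 3M (SD, n = 4 each). Libraries held 20579144 to 28791777 estimated counts. Of 10 marker lists for retinal cell types, 0 passed the exact permutation test of 24M against 3M after Benjamini-Hochberg adjustment. The rod sum and the microglial sum each reached the smallest unadjusted p of that design, 0.0286 (adjusted p = 0.143, exact permutation test, two-sided). At that p, these sums alone could not pass the adjustment over 10 lists, so the count of 0 does not show that cell composition was stable. The rod sums did not overlap, with libraries at 34400 to 40800 CPM at 24M and 43000 to 46800 CPM at 3M. The 10 microglial markers summed to 12.1 ± 1.05 CPM at 24M and 10.4 ± 0.487 CPM at 3M, and 7 of them averaged under 1 CPM. The 12 Müller glial markers summed to 261 ± 58.7 CPM at 24M, with libraries at 179 to 306, and to 193 ± 61.2 CPM at 3M, with libraries at 135 to 278. The part of other cell types in the results below was not tested, and fewer cells of a type and less RNA per cell cannot be told apart in sorted bulk samples. The libraries 12M replicate 4, 18M replicate 3 and 24M replicate 3 stood at the extremes of the first principal component and are the 3 that the authors' normalized table does not hold, so calls are also given without them where that matters.

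The receptors open the pathway. Insr encodes the insulin receptor and Igf1r the receptor of insulin-like growth factor 1, and neither passed the test of the 16 libraries at any age. Insr, on chromosome 8 at 3122061 to 3279617 (minus strand, GRCm38), stood at 125, 116, 93.9 and 114 CPM in the 24M libraries, against 126, 127, 118 and 115 CPM in the 3M libraries. The 2 ages overlapped, although the lowest value of all, in 24M replicate 3, lay well under the 3M range. The log2 fold change of Insr at 24M was -0.12 (95% interval -0.33 to 0.09, adjusted p = 0.69, edgeR quasi-likelihood test with Benjamini-Hochberg adjustment, as for all adjusted p-values of genes below). With the slope of each library on transcript length as a covariate, the edgeR value was -0.21 and passed (adjusted p = 0.029), and with the slope on GC content it was -0.14 and passed (adjusted p = 0.011). The GC slope also gave a call at 18M (-0.15, adjusted p = 0.012), and limma voom with sample quality weights called Insr by the F-test over ages (adjusted p = 0.040). Shares of all genes do not stand beside these calls here, so they cannot be read as particular to Insr. Igf1r, on chromosome 7 at 67952827 to 68233668 (plus strand), stood at 250, 226, 222 and 217 CPM at 24M, against 213, 229, 225 and 244 CPM at 3M. The values of the ages were interleaved, and the log2 fold change was 0.006 (95% interval -0.15 to 0.16, adjusted p = 0.99). That interval, the narrowest of the 9, covers changes of up to about 0.16 on the log2 scale in either direction.

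The adaptor genes parted ways. Irs1 encodes insulin receptor substrate 1 and lies on chromosome 1 at 82233101 to 82291416 (minus strand). Its 1 annotated transcript of 9144 bases received 156 to 775 estimated counts per library. In the order of the ages, the 3M libraries held 7.62, 6.60, 6.35 and 16.1 CPM of Irs1, the 12M libraries 16.8, 16.6, 16.8 and 25.4 CPM, the 18M libraries 22.4, 22.0, 19.98 and 20.5 CPM, and the 24M libraries 25.3, 25.3, 22.2 and 26.4 CPM. Every library of each later age was above every 3M library, but 3M replicate 4 stood far above the other 3M libraries and only just under the lowest 12M library. The later ages overlapped with their neighbours. Libraries without overlap and higher than 3M were seen for 2.42% of tested genes at 12M, 7.22% at 18M and 5.28% at 24M.

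Irs1 averaged 24.8 ± 1.79 CPM at 24M and 9.16 ± 4.64 CPM at 3M (SD, n = 4 each), a log2 fold change of 1.44 (SE 0.24, 95% interval 0.93 to 1.95, adjusted p = 0.0015). It was the 1 of 9 genes called at 24M, where 4.25% of all tested genes were called and 2.65% were called as higher. At 18M the mean was 21.2 ± 1.17 CPM and the log2 fold change against 3M 1.22 (95% interval 0.71 to 1.73, adjusted p = 0.0087), again the 1 of 9 genes called, beside 2.64% of all genes (1.68% as higher). At 12M the mean was 18.9 ± 4.35 CPM and the log2 fold change 1.05 (95% interval 0.54 to 1.56, adjusted p = 0.041), with 1 of 9 genes called beside 1.39% of all genes (0.977% as higher). The 3 comparisons share the 3M libraries. Since the 9 genes were chosen with earlier results of these data known, their counts beside the shares of all genes are a description. Irs1 was among 115 genes, 0.944% of those tested, that were higher and called at all 3 later ages.

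The rise at 24M and at 18M passed in all 30 alternative settings, while the one at 12M was less firm. At 24M the log2 fold change of Irs1 was 1.30 to 1.85 over those settings, with adjusted p from 2.4e-07 to 0.022. Its highest value came without 3M replicate 4, where the edgeR adjusted p was 2.7e-06. At 12M the call held in 3 of 16 fits that left out 1 library: those without 3M replicate 4 (adjusted p = 9.7e-05), 12M replicate 4 (adjusted p = 0.049) or 24M replicate 3 (adjusted p = 0.04). Without any 1 of the other 13 libraries the adjusted p was 0.052 to 0.17. Without the 3 libraries that stood apart, the edgeR log2 fold change was 1.49 at 24M (adjusted p = 0.00053) and 0.88 at 12M (adjusted p = 0.012).

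Between the later ages the steps of Irs1 were small beside its spread. The log2 fold change was 0.22 at 24M against 18M (adjusted p = 0.95) and 0.17 at 18M against 12M (adjusted p = 1). In these steps 0 of 9 genes were called by edgeR, by DESeq2 or by limma voom, and 0 had an unadjusted edgeR p under 0.05. With sample quality weights, limma voom called 2 of the 9 at 18M against 12M, Irs1 (adjusted p = 0.037) and Insr (adjusted p = 0.022), and 0 at 24M against 18M. The fit with quality weights also called 20 of 91 further pathway genes at 18M against 12M, and its share of all genes there is not given here. By edgeR, without such weights, 0.00821% of all tested genes were called at 18M against 12M and 0.0% at 24M against 18M. With age as a linear term, Irs1 rose by 0.066 log2 units per month (adjusted p = 0.0023), the 1 of 9 genes called beside 4.8% of all genes. The edgeR F-test over the 4 ages also called Irs1 alone of the 9 (adjusted p = 0.011), beside 2.82% of all genes. That call was lost without 3M replicate 1, 2 or 3, where the adjusted p was at most 0.061.

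The authors' deposited table of comparisons, which rests on 13 libraries, gives Irs1 log2 differences from 3M of 1.00 at 12M, 1.37 at 18M and 1.61 at 24M. Its F statistic was 26.14 and its adjusted p-value 0.0003 in the authors' deposited table. Irs1 was the 1 of 9 genes under 0.05 in the authors' deposited table, in which 26.7% of 11826 genes were.

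Irs2 encodes the second widely expressed adaptor of the family and lies on chromosome 8 at 10984681 to 11008458 (minus strand). In the order of the ages, the 3M libraries held 43.8, 47.9, 48.4 and 48.3 CPM of Irs2, the 12M libraries 39.6, 41.5, 40.7 and 49.8 CPM, the 18M libraries 47.2, 43.3, 33.8 and 40.7 CPM, and the 24M libraries 39.4, 43.9, 50.3 and 40.5 CPM. Each later age had at least 1 library inside or above the 3M range, and at 12M and 24M that highest library was one of the 3 that stood apart. The log2 fold change of Irs2 was -0.11 at 24M (95% interval -0.34 to 0.11, adjusted p = 0.75), -0.19 at 18M (adjusted p = 0.51) and -0.14 at 12M (adjusted p = 0.71). With sample quality weights in limma voom Irs2 passed at 24M (-0.21, adjusted p = 0.032), at 12M (-0.21, adjusted p = 0.017) and by the F-test (adjusted p = 0.045). Without the 3 libraries that stood apart, it passed at 12M by edgeR (-0.21, adjusted p = 0.023). Quality weights also called 42 of 91 further pathway genes at 12M and 16 at 24M. The share of all genes called at 12M without the 3 libraries is not given here. These calls thus cannot be read as particular to Irs2.

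**Figure D1:**
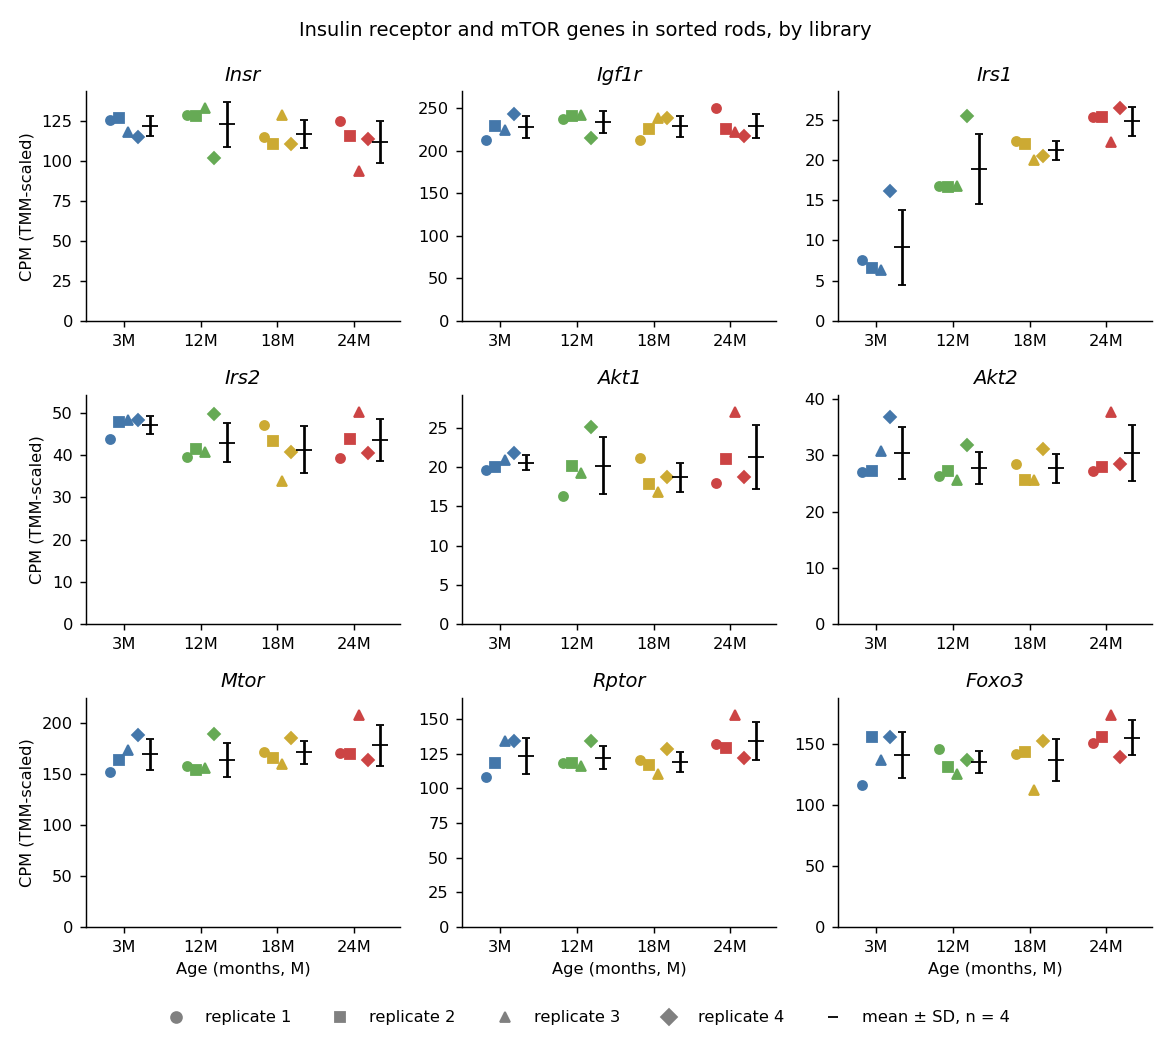
CPM of the 9 genes (vertical axis, from 0) by age (horizontal axis, 3M to 24M); each point is 1 library, its shape gives the replicate, and the bar shows mean ± SD of 4 libraries. Irs1 libraries at 24M sit between 22.2 and 26.4 CPM, above all 3M libraries, and the ages overlap in the other 8 panels.

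Per unit of transcript length, the adaptors were the scarcest of the 9 genes when all annotated transcripts of a gene, coding or not, were summed. Irs1 stood at 2.06 ± 0.492 TPM (transcripts scaled to a common total) at 24M and 0.649 ± 0.297 TPM at 3M, and Irs2 at 5.12 ± 0.435 TPM at 24M and 4.90 ± 0.405 TPM at 3M. The ratio of Irs1 to Irs2 on this scale was 0.134 ± 0.0654 in 3M libraries, 0.302 ± 0.0348 in 12M libraries, 0.359 ± 0.0347 in 18M libraries and 0.399 ± 0.067 in 24M libraries (SD, n = 4 each). Irs2 thus remained the more abundant adaptor transcript in every library, since the highest ratio was 0.45. Each adaptor gene has only 1 transcript in the deposited counts, so use of other isoforms could not be measured for them. Gm9747, an annotated gene on the opposite strand that overlaps the Irs1 locus by 2822 bases, had 0 counts in every library.

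The AKT kinases lie downstream of the lipid signal. Akt1, on chromosome 12 at 112653821 to 112674884 (minus strand), stood at 18.0, 21.1, 27.1 and 18.8 CPM at 24M, against 19.7, 20.0, 20.9 and 21.8 CPM at 3M. Its 24M libraries reached both below and above the 3M range, and the log2 fold change was 0.05 (95% interval -0.25 to 0.34, adjusted p = 0.94). Akt2, the isoform best known for insulin-stimulated glucose uptake, lies on chromosome 7 at 27591552 to 27640826 (plus strand). It stood at 27.3, 27.9, 37.8 and 28.5 CPM at 24M, against 27.1, 27.2, 30.7 and 36.9 CPM at 3M. Both ages had 1 library well above the rest, and the log2 fold change of Akt2 was -0.003 (95% interval -0.27 to 0.27, adjusted p = 1). The sign of the Akt1 value turned without 24M replicate 3, to -0.09 (adjusted p = 0.68).

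Mtor encodes the kinase that both mTOR complexes are built on, and Rptor the Raptor subunit that only mTOR complex 1 contains. Mtor, on chromosome 4 at 148448611 to 148557683 (plus strand), stood at 170, 169, 208 and 164 CPM at 24M, against 152, 164, 173 and 188 CPM at 3M. The ages overlapped apart from the high value of 24M replicate 3, and the log2 fold change was 0.07 (95% interval -0.13 to 0.28, adjusted p = 0.84). Without 24M replicate 3 it was -0.01 (adjusted p = 0.96). Rptor, on chromosome 11 at 119602905 to 119899576 (plus strand), stood at 132, 129, 153 and 122 CPM at 24M, against 108, 118, 134 and 134 CPM at 3M. Its highest library was again 24M replicate 3, the others lay inside the 3M range, and the log2 fold change was 0.12 (95% interval -0.07 to 0.32, adjusted p = 0.64). Mtor shares 5278 bases with Angptl7 on the opposite strand, which stood at 12.2 ± 0.903 CPM at 24M and 10.1 ± 1.13 CPM at 3M. Rptor shares 13554 bases with the antisense gene Rptoros, at 2.08 ± 0.402 CPM at 24M and 1.78 ± 0.256 CPM at 3M. These overlaps are of gene bodies, introns included, and the sources used here give no strand setting for the counting. The part of such partners in the counts of Mtor and Rptor was not tested.

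Foxo3 encodes a forkhead transcription factor that AKT phosphorylates and thereby keeps in the cytoplasm. On chromosome 10 at 42181841 to 42276755 (minus strand), it stood at 151, 156, 174 and 139 CPM at 24M, against 116, 156, 137 and 156 CPM at 3M. The ages overlapped, with 2 of the 3M libraries, at 116 and 137 CPM, below all 24M libraries and 24M replicate 3 above all 3M libraries. The log2 fold change of Foxo3, 0.14 at 24M, was the largest after that of Irs1 and did not pass (95% interval -0.10 to 0.38, adjusted p = 0.68).

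**Figure D2:**
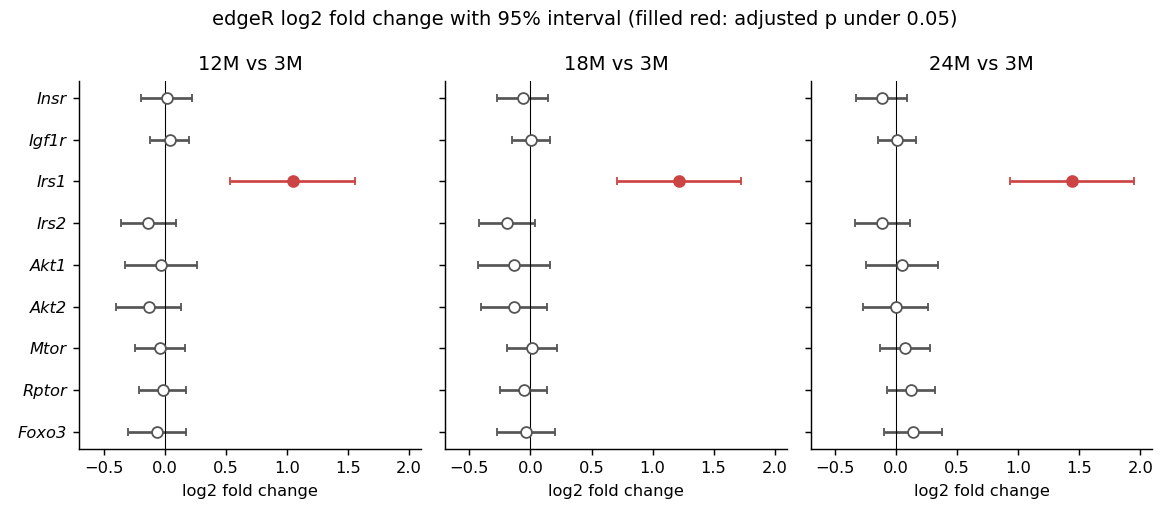
Log2 fold change of each of the 9 genes (horizontal axis) at 12M, 18M and 24M against 3M, with 95% intervals from edgeR. The intervals of Irs1 lie above 0 in all 3 panels, with 0.93 to 1.95 at 24M, and those of the other 8 genes include 0.

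At 12M and 18M the 8 genes other than Irs1 showed the same lack of calls. Their log2 fold changes at 18M lay between -0.19 for Irs2 and 0.014 for Mtor, and at 12M between -0.14 for Irs2 and 0.038 for Igf1r. A p that misses the threshold does not show that a gene was unchanged, and the 95% intervals at 24M of the 8 genes reached from -0.34 for Irs2 to 0.38 for Foxo3. For comparison, the lower bound of the interval of Irs1 at 24M was 0.93.

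Ordered by level per length over all 16 libraries, Foxo3 (27.2 ± 5.16 TPM) and Igf1r (27.0 ± 6.10 TPM) came first, but Igf1r had the higher mean at 3M, 12M and 18M and Foxo3 at 24M. Rptor (23.5 ± 4.23 TPM), Mtor (17.1 ± 2.66 TPM), Akt2 (14.7 ± 2.27 TPM) and Insr (14.3 ± 3.37 TPM) followed. Akt1 stood at 8.96 ± 1.41 TPM, Irs2 at 4.94 ± 0.494 TPM and Irs1 at 1.48 ± 0.617 TPM (SD, n = 16). These levels sum all annotated transcripts of a gene, and only 5.52% of Rptor counts went to protein-coding ones. The order is thus not one of coding transcripts. Neighbours from Foxo3 down to Akt1 overlapped in their library ranges, and Insr exceeded Akt2 in the mean at 12M. Irs2, at 4.12 to 5.72 TPM, lay under every Akt1 value and above every Irs1 value. Insr was thus the rarer receptor transcript, at 0.498 ± 0.0286 of the Igf1r level at 24M and 0.559 ± 0.061 at 3M.

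The per-length scale itself moved between ages, since the median log2 ratio of mean TPM at 24M to that at 3M was 0.21 over the 12177 tested genes. On it, the log2 ratio was 1.67 for Irs1, 0.42 for Foxo3, 0.31 for both Akt1 and Rptor, and 0.06 for Irs2. Foxo3 libraries spanned 25.9 to 34.8 TPM at 24M and 19.0 to 25.4 TPM at 3M without overlap, and those of Akt1 spanned 9.58 to 10.4 TPM at 24M and 7.60 to 8.36 TPM at 3M. On the CPM scale both genes overlapped between the ages, so the separation depended on the scale. The share of all genes without overlap in TPM is not given here, so the separation is no result about these genes. Relative to the shift of all genes, Irs1 was 1.45 log2 units higher and Foxo3 0.21.

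**Figure D3:**
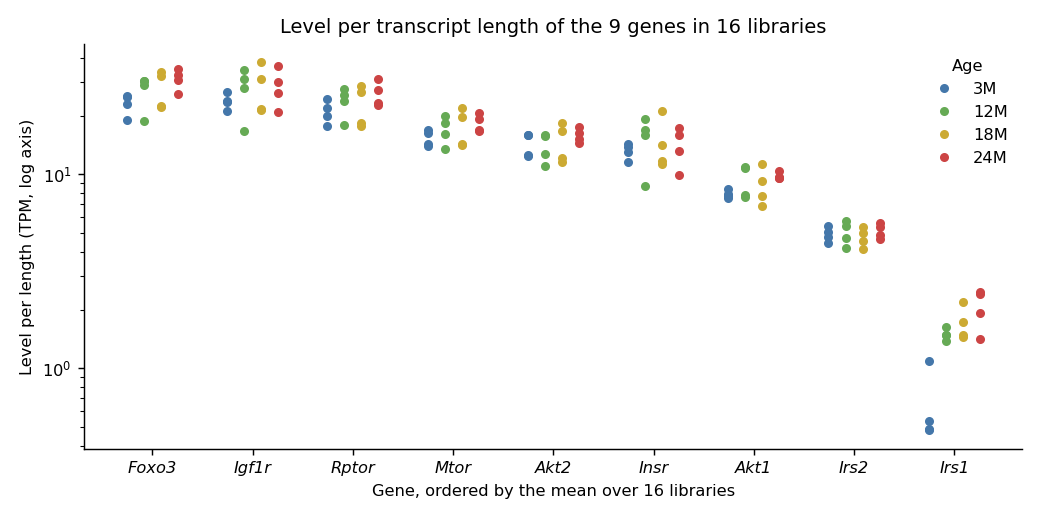
Level per transcript length (TPM, log axis) of the 9 genes in all 16 libraries, coloured by age and ordered by mean. Foxo3 and Igf1r lead at about 27 TPM, and Irs1 is lowest in every library, at 0.479 to 2.48 TPM.

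Several of the genes also differed in which annotated transcripts their counts went to. Rptor was the extreme, with 48.2% of its estimated counts assigned to transcripts annotated for nonsense-mediated decay, 46.2% to retained introns and 5.52% to protein-coding transcripts (means of 16 libraries). The full-length protein-coding transcript Rptor-201 ranged from near 0 to 16.1% of the gene's counts across libraries, and the decay-annotated transcript Rptor-211, of 6138 bases, from 35.1% to 51.8%. These are estimates that divide reads among transcripts with shared exons, and the split between them was unsteady within each age. Retained introns took 19.3% of Insr counts and 16.4% of Igf1r counts, and the leading coding transcript held 80.5% for Insr and 83.6% for Igf1r. The leading coding transcript held 97.3% of Mtor counts and 72.9% of Akt1 counts. Akt2 was the most divided, with 30.0% in its leading transcript, Akt2-205.

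Of 9 transcripts of the genes with at least 2 major transcripts, 0 passed the exact permutation test of their share at 24M against 3M after adjustment, and 1 had an unadjusted p under 0.05. That one was Foxo3-203, the long transcript of 6848 bases, at 77.9% ± 1.27 of Foxo3 counts at 24M and 82.6% ± 2.05 at 3M (SD, n = 4 each). The groups did not overlap, and the two-sided exact p was 0.0286, the smallest that 4 against 4 allows (adjusted p = 0.257). At that p, 1 transcript alone could not pass the adjustment over 9. At 12M and 18M the share of Foxo3-203 was 79.8% ± 1.95 and 79.5% ± 1.96.

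**Figure D4:**
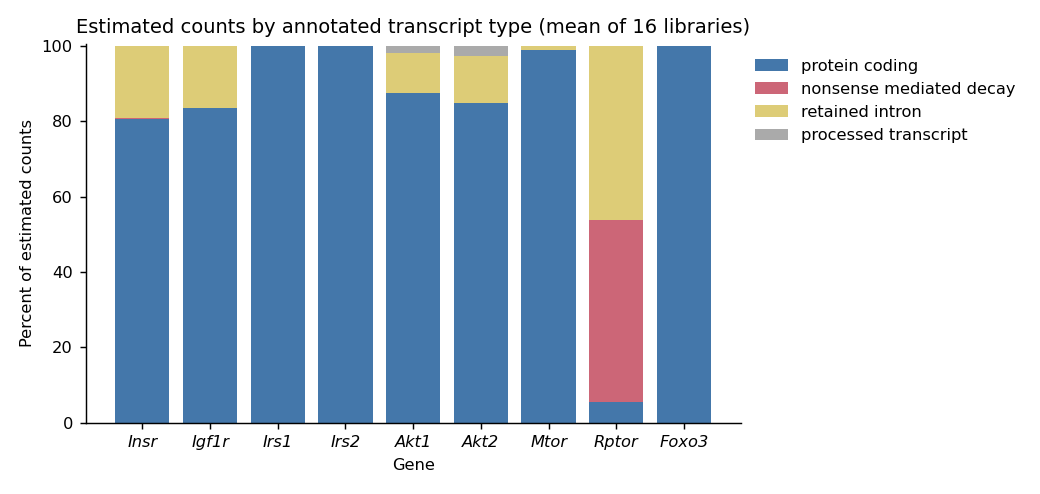
Percent of the estimated counts of each gene (vertical axis, mean of 16 libraries) by annotated transcript type. Protein-coding transcripts hold 100% for Irs1, Irs2 and Foxo3 and 5.52% for Rptor. The 100% was set by the annotation, which holds only protein-coding transcripts for those genes.

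Across the 16 libraries the genes fell into a group that varied together. The Pearson correlation of log2 CPM was 0.891 between Mtor and Rptor, 0.890 between Mtor and Akt2, and 0.831 between Akt2 and Rptor. Insr ran the other way, at -0.882 with Mtor and -0.759 with Rptor. Irs1 kept apart, with correlations of -0.401 (Insr) to 0.307 (Mtor) with the other 8. These are descriptions over libraries that differ in their depth and their slope on GC content. The library with the highest GC slope, 24M replicate 3, was also the highest for Irs2, Mtor, Rptor, Akt1, Akt2 and Foxo3. It was the lowest for Insr. The part of that slope in the correlations was not tested.

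The protein-coding genes whose log2 CPM followed Irs1 most closely over the 16 libraries were Hist3h2a, a histone H2A gene (r = 0.954), Tec, a non-receptor tyrosine kinase gene (r = 0.944), and Tcea3, a gene for a transcription elongation factor (r = 0.944). Tec stood at 18.6 ± 2.73 CPM at 24M and 6.37 ± 1.21 CPM at 3M, and Tcea3 at 16.1 ± 2.50 CPM at 24M and 6.08 ± 1.43 CPM at 3M (SD, n = 4 each). Rptor was followed most closely by Pcnx3 (r = 0.952), Prrc2a (r = 0.951) and Pgs1 (r = 0.949), and Foxo3 by Zfp516 (r = 0.970), Dgcr2 (r = 0.946) and Elfn1 (r = 0.935). All these genes were chosen for their likeness over the same libraries, so their levels by age are a description. Their results in the edgeR fit are not given here.

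The surrounding pathway was read from 9 lists with 113 further genes, of which 91 were tested and 22 fell under the filter. At 24M against 3M, 3 rose and 1 fell, which is 4.4% of the 91 beside 4.25% of all genes (1.6% of all genes were called as lower), and the median log2 fold change was 0.016 beside 0.011 over all genes. The share called was thus close to the background. Without the 3 libraries that stood apart, 12 of these genes were called, beside 23.6% of all genes. DESeq2 and limma voom also called 4 each. Grb10, an adaptor that binds the insulin receptor and dampens its signal, stood at 124 ± 11.9 CPM at 24M and 93.5 ± 2.80 CPM at 3M (SD, n = 4 each; log2 fold change 0.41, adjusted p = 0.0034). Inpp4b, a phosphatase that removes a phosphate from a phosphoinositide made in this pathway, stood at 12.0 ± 2.70 CPM at 24M and 5.84 ± 1.74 CPM at 3M (log2 fold change 1.03, adjusted p = 0.012). Pik3r3, a regulatory subunit of phosphoinositide 3-kinase, stood at 50.6 ± 5.25 CPM at 24M and 37.6 ± 6.03 CPM at 3M (log2 fold change 0.43, adjusted p = 0.049). Lpin1, a phosphatidate phosphatase and target of mTOR complex 1, fell to 51.9 ± 3.52 CPM at 24M, against 66.8 ± 4.34 CPM at 3M (log2 fold change -0.36, adjusted p = 0.0059).

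At 24M, the calls on Grb10, Inpp4b and Lpin1 held in all 16 fits that left out 1 library. In other settings, Inpp4b lost its call with ages fitted alone (adjusted p = 0.054) and with the length slope in the 13 libraries (adjusted p = 0.052). Lpin1 lost it there too (adjusted p = 0.052 and 0.069, in that order) and with no filter (adjusted p = 0.054). The 24M call on Grb10 held in these settings as well. The call on Pik3r3 was lost in 12 of the 16 fits that left out 1 library (adjusted p up to 0.16). It held when the library left out was 3M replicate 1, replicate 4 of 12M or of 18M, or 24M replicate 3. At 18M against 3M Inpp4b rose and Lpin1 fell, and at 12M Lpin1 fell, by edgeR. The call on Inpp4b at 18M was lost without 3M replicate 2, 3 or 4 or 18M replicate 1 or 3 (adjusted p up to 0.073), and that on Lpin1 at 12M without 3M replicate 2, 3 or 4 or 12M replicate 1, 2 or 3 (adjusted p up to 0.19). The F-test over ages called Grb10, Inpp4b and Lpin1, calls that were lost in 7, 12 and 2 of the 16 fits without 1 library. In the authors' deposited table these 3 genes had adjusted p-values of 9.1e-05, 0.00038 and 0.0017.

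By role, the calls at 24M fell in 3 of the 9 lists, and each count below stands beside 4.25% of all tested genes. Of the receptor adaptors and inhibitors, 1 of 8 tested genes was called (Grb10, median of the list 0.053), of the phosphoinositide 3-kinase and lipid phosphatase genes 2 of 11 (Pik3r3 and Inpp4b, median 0.037), and of the mTOR complex 1 targets 1 of 13 (Lpin1, median -0.00033). By edgeR, 0 of 8 AKT partners and targets, 0 of 13 genes of the TSC complex, Rheb and AMPK, 0 of 7 mTOR complex subunits, 0 of 27 amino acid sensing genes and 0 of 2 further FOXO factors were called, with medians of 0.012, 0.027, -0.013, -0.028 and 0.097. Of those lists, 2 amino acid sensing genes, Rragc and Wdr59, had an unadjusted p under 0.05, and DESeq2 and limma voom called 0 in each. Of 11 ligand and binding protein genes, 2 were tested and 0 called, with 1 unadjusted p under 0.05, that of Igf2 (6.85 ± 0.435 CPM at 24M and 5.25 ± 0.781 CPM at 3M, adjusted p = 0.17). The insulin genes Ins1 and Ins2 had 0 CPM in all 16 libraries, and Igf1 averaged 2.69 CPM, under the filter.

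Targets of FOXO factors known from other tissues were listed in the same way. Of these 20, 12 were tested, and at 24M 1 rose and 2 fell, beside 2.65% of all tested genes called as higher and 1.6% as lower, with a median log2 fold change of -0.0095 beside 0.011 over all genes. Bcl2l11, which encodes the pro-apoptotic protein BIM, stood at 58.5 ± 2.16 CPM at 24M and 42.0 ± 1.28 CPM at 3M (SD, n = 4 each; log2 fold change 0.48, adjusted p = 0.00026). Cat, which encodes catalase, fell to 5.56 ± 0.468 CPM at 24M, against 8.98 ± 1.06 CPM at 3M (log2 fold change -0.69, adjusted p = 0.0052). Gadd45a, a stress-response gene, fell to 27.6 ± 2.20 CPM at 24M, against 37.9 ± 1.29 CPM at 3M (log2 fold change -0.46, adjusted p = 0.0016). These 3 calls held without any 1 library. The call on Cat was lost with limma on the authors' CPM, at an adjusted p of 0.26 with a pseudocount of 0.5 and 0.25 with a pseudocount of 2, and with the length slope in the 13 libraries (adjusted p = 0.18). That last setting also ended the call on Gadd45a (adjusted p = 0.12).

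**Figure D5:**
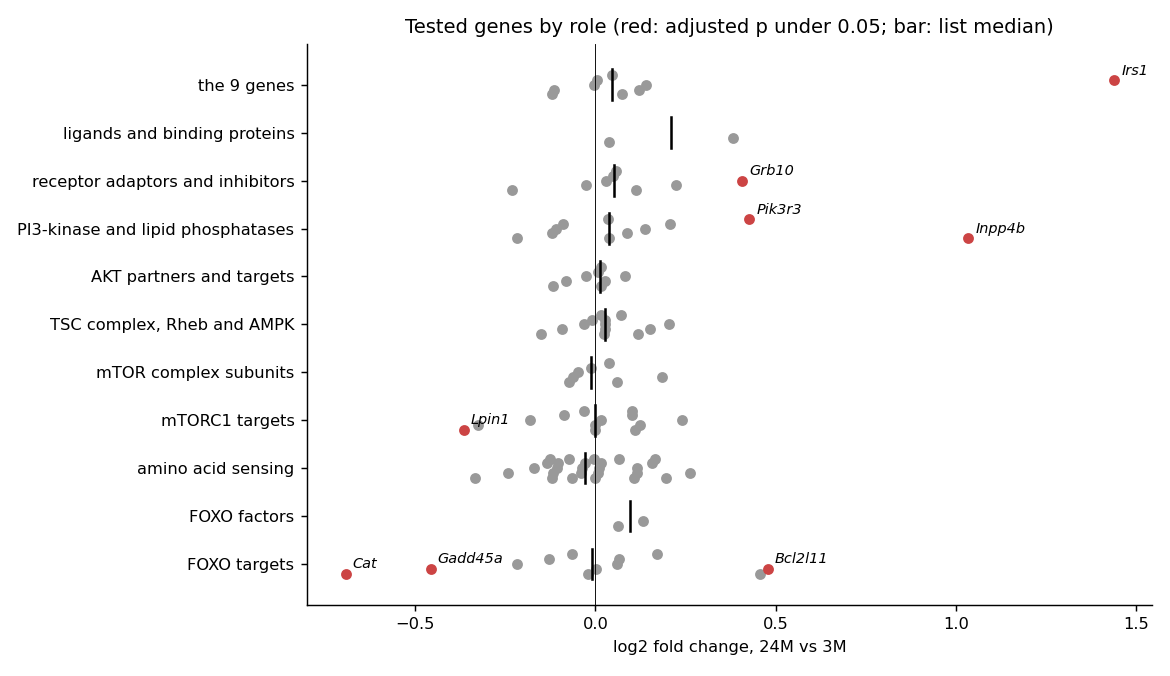
Log2 fold change at 24M against 3M (horizontal axis) of the tested genes of each list, 1 point per gene, with a bar at the list median; red points passed an adjusted p of 0.05 and are named. Irs1, at 1.44, is the largest value shown, and list medians lie between -0.028 and 0.21.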

How the data were processed

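RNA of flow-sorted rods was sequenced in 16 libraries, made per the labels' protocols from 4 ng of total RNA with a stranded kit, 13 PCR cycles and paired reads of 125 bases. The sort was checked by resorting, at over 98% purity per the labels. The authors deposited estimated counts per transcript, which are not whole. They also deposited a signal per gene in CPM, the same signal in CPM after their normalization for 13 libraries (without 12M replicate 4, 18M replicate 3 and 24M replicate 3), and a table of comparisons that holds, per the file headers, log2 differences from 3M, an F statistic as a score, and a p-value. The tools in the submitters' processing notes are limma 3.32.2, edgeR 3.13.9 and kallisto 0.42.5, and the build is GRCm38.p4. For the counting, the sources used here give no strand setting.

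Of 113468 transcripts, 111896 were matched by identifier to 45038 GENCODE genes (GRCm38). The unmatched held 0.73% to 1.08% of counts. These estimated counts were added up per gene and then rounded. Total estimated counts were 20579144 to 28791777 per library, and counting error sets only a lower limit on the spread, since reads after PCR are not independent molecules. The quasi-likelihood test of edgeR 4.0.16 (R 4.3.3, TMM factors) was run on the 12177 genes that reached 5 CPM in 4 or more libraries, with all 16 libraries in 1 fit and a mean for each age. Another fit replaced the means by a slope on age in months. P-values were adjusted by Benjamini-Hochberg over every gene tested, and called means under 0.05. Levels per length (TPM) divide each transcript's estimated counts by its annotated length. A slope is the change of a library's centred log2 CPM per doubling of transcript length or with GC content. Shares of transcripts and marker sums were compared by exact permutation tests. The fit was tested on simulated data.

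The replicate numbers were not taken to pair the samples. Deviations of same-numbered libraries correlated at 0.0184 on average, with 24 pairs at -0.744 to 0.726. Libraries of different number correlated at -0.004 on average, with 72 pairs at -0.807 to 0.849. A mean near 0 over so wide a range cannot show that the numbers share nothing. No libraries agreed within sampling noise (lowest chi-square per degree of freedom 8.99).

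The 9 genes and all lists were chosen with earlier results of these data known. Beyond the 9, the text names up to 4 genes per list with the smallest p among those called at 24M or by the F-test, and the 3 protein-coding genes most correlated with each of the 3 members of smallest F-test p. Rragc, Wdr59, Igf2, Ins1, Ins2, Igf1 and Gab1 are named outside that rule, after their values were seen. Promoter sequences are RefSeq's (GRCm38.p6), and 8 of the 9 genes were matched there. Alternatives were DESeq2 1.42.0, limma 3.58.1 voom with and without quality weights, DESeq2 size factors, no filter or a minimum of 1 CPM, the authors' CPM in limma with pseudocounts of 0.5 and 2, ages fitted alone, a replicate block, the 13 libraries, both slopes as covariates, and each library left out in turn. The length slope in the 13 libraries was an alternative chosen after seeing the data.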

Additional observations from a re-analysis of the deposited data

Results flagged for a closer look

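Of 36 groups of 4 libraries (9 genes at 4 ages), 8 had 1 library whose gap to the nearest other exceeded Dixon's 95% critical share of the group's range, where chance flags about 1 in 20 groups. For Irs1 these were 3M replicate 4, at 16.1 CPM, and 12M replicate 4, at 25.4 CPM, both above the rest of their age. Irs2 was low in 3M replicate 1, at 43.8 CPM. In 12M replicate 4, Igf1r was low at 215 CPM, and Mtor, at 189 CPM, and Rptor, at 134 CPM, were high. In 24M replicate 3, Akt2 was high at 37.8 CPM and Mtor at 208 CPM. Thus 6 of the 8 involve 12M replicate 4 or 24M replicate 3, the libraries with the highest slopes on GC content. The next highest slope, 0.286, was that of 3M replicate 4, the 3M library flagged for Irs1. The part of the GC slope in these flags was not tested.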

How the results depend on the processing

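Over 30 alternatives, the rise of Irs1 at 24M and at 18M kept its direction and its call. Of the 9 genes, 1 was called at 12M, 18M and 24M against 3M, by the F-test and by the linear term. With quality weights 2 were called at 12M, 24M and in 18M against 12M, and 3 by the F-test. The GC slope gave 2 at 18M, 24M, by the F-test and the linear term, and the length slope 2 at 24M and by the linear term. At 12M, the 13 libraries gave 2, and a minimum of 1 CPM, ages fitted alone and the length slope in the 13 libraries gave 0. Leaving out 1 library gave 0 to 1 at 12M and by the F-test. Quality weights also called a large share of all genes, as given in the next paragraph. Beside the counts of the other alternatives no such share is given here. The added calls thus describe the settings and are no result about the 9 genes.

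Calls among the 91 pathway genes followed the setting more, as did those among all genes, of which quality weights called 47.9% at 12M and 27.2% at 24M. With quality weights the pathway counts were 42 at 12M, 6 at 18M, 16 at 24M, 20 in 18M against 12M, 1 in 24M against 18M, 37 by the F-test and 10 by the linear term. In the 13 libraries they were 33, 4, 12 at the later ages against 3M, 2 in 18M against 12M, and 16 by the F-test. The GC slope gave 2, 6 and 17 at 12M, 18M and 24M, 10 by the F-test and 14 by the linear term, and the length slope 5 at 18M, 10 at 24M, 5 by the F-test and 7 by the linear term. The length slope in the 13 libraries gave 0, 4 and 1 at 12M, 18M and 24M. DESeq2 gave 4 at 18M, ages fitted alone gave 0 at 12M and 1 at 24M, and a minimum of 1 CPM and limma on the authors' CPM with either pseudocount gave 0 at 12M. Leaving out 1 library gave 0 to 2 at 12M, 1 to 4 at 18M and 0 to 3 by the F-test. Apart from quality weights at 12M and 24M, no share of all genes stands beside these counts here. The other counts thus describe the settings, and cannot show whether pathway genes were called more often than other genes.

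The replicate block left the count of the 9 genes at 1 at each later age against 3M, gave 0 pathway genes at 12M, ended the calls on Pik3r3 at 24M (adjusted p = 0.054) and on Grb10 by the F-test (adjusted p = 0.055, both edgeR), and put Akt2 at 0.004 at 24M. It moved the count of all genes called at 24M to 444, against 518. Signs of values near 0 turned. At 24M against 3M, Igf1r was -0.005 with quality weights, -0.012 with a minimum of 1 CPM and with no filter, -0.003 with ages alone and with the length slope in the 13 libraries, and -0.022 with the length slope, and lay between -0.038 and 0.04 without 1 library. Akt1 was -0.096 with quality weights, -0.093 in the 13 libraries and -0.034 with the length slope there, and -0.093 to 0.119 without 1 library. Akt2 was 0.001 with limma voom, 0.071 with the length slope and 0.008 with the GC slope, and -0.126 to 0.102 without 1 library. Mtor was -0.012 with quality weights and -0.010 in the 13 libraries, and -0.011 to 0.127 without 1 library. The libraries' slope on length, 0.0325 higher at 24M than at 3M, was 0.0607 higher in the 13 libraries (exact permutation p = 0.0286), and 0.0171 to 0.0607 without 1 library. The cause of these shifts was not tested. Irs1 rested on 156 to 775 counts per library and Akt1 on 356 to 690.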

Other observations

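Gab1 encodes a docking protein that, like the IRS proteins, is phosphorylated by activated receptors and recruits phosphoinositide 3-kinase. It missed the minimum of 5 CPM in 4 libraries and so entered no comparison above. In the order of the ages, Gab1 stood at 4.23, 4.11, 3.83 and 8.04 CPM at 3M, at 1.51, 1.75, 0.974 and 3.73 CPM at 12M, at 1.18, 1.66, 0.972 and 1.54 CPM at 18M, and at 1.41, 1.62, 1.41 and 1.60 CPM at 24M. Every later library lay under every 3M library. In the alternative with a minimum of 1 CPM, the edgeR log2 fold change was -1.75 at 24M against 3M (adjusted p = 0.0056) and -1.94 at 18M against 3M (adjusted p = 0.0042), and at 12M it was -1.37 (adjusted p = 0.066). With no filter the 12M value was -1.38 (adjusted p = 0.046). Gab1 was picked out after its values were seen. For comparison, the main fit called 1.6% of its tested genes as lower at 24M. Shares of all genes called in these other fits, or without overlap and lower, are not given here. How unusual Gab1 is among genes of such low counts thus cannot be read from these values. As with Irs1, 3M replicate 4 and 12M replicate 4 were the highest libraries of their ages.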
